A study of Mus musculus with 2031 samples.

Results

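Hippocampal AST1 and AST3 astrocytes were compared within each of the 2 hippocampal cell suspensions, 1H and 2H. The members are the cells of these suspensions that the study's list of cell types names AST1 or AST3. There were 545 AST1 cells, 49.7% of them in 1H, and 65 and 82 AST3 cells in 1H and 2H, and thus 692 of the 2030 cells with counts. All animals were C57BL/6J mice at postnatal day 56. Each hippocampal suspension was pooled from 4 littermates, and each cortical one, 1C and 2C, came from 1 animal. All cells were live, ACSA-2+ and O1-, sorted by flow cytometry one per well, and sequenced by Smart-seq2, which reads full-length poly-A RNA and adds no molecular tags, so reads rather than molecules were counted. Counts were summed per type and suspension and expressed as CPM, a gene's counts relative to the total of its sum after TMM adjustment for composition. Pairs of values below are in the order 1H, 2H. The types had been found by clustering these same counts, so a difference between them describes the types as named and how steady it was over 2 suspensions. It is not independent evidence that the types are distinct.

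Astrocytes clear glutamate, GABA and potassium from around synapses, pass metabolites and ions to each other through connexin channels, and touch blood vessels with endfeet rich in aquaporin. Glial fibrillary acidic protein, Gfap, is the classic intermediate filament of the astrocytes of the hippocampus and rises in reactive ones. Astrocytes also secrete lipoproteins, protease inhibitors and matrix proteins that act on synapses. Subtypes of astrocytes share most of this programme and differ in how much of each part they express.

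Depth was close between the types. The median cell had 1493806 and 1367356 gene counts in AST1 and 1587135 and 1462534 in AST3, and 1969 and 2003.5 genes with a count in AST1 against 2051 and 2112 in AST3. The share of reads outside exons was slightly higher in AST1, with medians of 13.22% and 12.95% in AST1 and 12.09% and 11.89% in AST3. The 4 sums held 421590638 and 387918253 counts for AST1 and 108183293 and 122552764 for AST3. The astrocyte identity of both types was checked on 9 markers, all of which were well detected. Slc1a3, the glial glutamate transporter GLAST, had a count in every cell of both types also after each cell was thinned to 50000 counts. Its level was 10135 and 10448 CPM in AST1 and 8883 and 9274 CPM in AST3, and Gja1, the main astrocyte connexin, stood at 7960.2 and 7969 CPM in AST1 and 8461 and 8061 CPM in AST3. Markers of other cell types are given as the mean over cells of the summed CPM of each whole list. Endothelial markers averaged 0.566 and 5.02 CPM in AST1 and 5.18 and 0.0107 CPM in AST3. Cdh5, the adhesion protein of endothelial junctions, was at 0 in all sums, the only 1 of the 6 listed genes to be so. Oligodendrocyte markers averaged 2.99 and 6.14 CPM in AST1 and 10.76 and 6.63 CPM in AST3. Neuronal markers averaged 13.01 and 11.66 CPM in AST1 and 47.65 and 16.86 CPM in AST3. Rbfox3 and Gad2, which mark neurons and inhibitory neurons, were at 0 in all sums, the only 2 of the 9 listed genes to be so. Microglial markers averaged 92.17 and 139.7 CPM in AST1 and 81.69 and 65.78 CPM in AST3, with P2ry12, a purinergic receptor that marks microglia, at 25.80 and 41.72 CPM in AST1 and 9.171 and 0.01636 CPM in AST3. Mural markers averaged 119.5 and 118.1 CPM in AST1 and 94.42 and 60.12 CPM in AST3. Cells with at least 50 CPM of any of these lists made up 42.4% and 41.2% of AST1 cells and 38.5% and 31.7% of AST3 cells, and an alternative left them all out. Oligodendrocyte precursor markers, which include Olig1 and Olig2, were not part of that alternative, and 34.7% and 37.2% of AST1 cells and 69.2% and 75.6% of AST3 cells had at least 50 CPM of them. Each called gene named below had the same direction in the alternative, with log2 fold changes from 0.442 for Apoe to 3.613 for Ass1 among those higher in AST1 and from −0.31 for Mfge8 to −2.196 for Spon1 among those higher in AST3.

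Over all 15798 genes that passed the low-count filter, the paired edgeR quasi-likelihood test called 0 genes higher in AST1 (0%) and 0 genes higher in AST3 (0%). The smallest adjusted p was 0.695. At an unadjusted p under 0.05 there were 801 genes, of which 469, or 58.6%, were higher in AST1 and the others in AST3. The common biological coefficient of variation was 1.04, with 1 residual degree of freedom. DESeq2 on the same sums called 2114 and 1103 genes, and limma on mean log values called 10 and 37. Restricting the edgeR test to 2689 well-detected genes, those found in over 25% of AST1 or of AST3 cells, lowered the coefficient of variation to 0.201. It called 12 genes higher in AST1 (0.446%) and 12 genes higher in AST3 (0.446%). The number of calls moved with the estimate of spread: without the pairing by suspension 25 and 34 well-detected genes were called, and with spread shared with hippocampal AST2 and AST4 sums 0 and 0, with 57 and 50 at an unadjusted p under 0.05. Without cells bearing markers of other types it was 6 and 2. Of the well-detected genes, 7.03% passed 25% in AST1 only and 13.9% in AST3 only, and a gene that passed in 1 type alone had to differ in detection. Among the 24 calls this applies to Ass1, over 25% in AST1 only, and to Spon1, Lrig1 and Il33, over 25% in AST3 only, while the other 20 passed 25% in both types. The calls below are those of the well-detected fit, with adjusted p values by the Benjamini-Hochberg method over 2689 genes. Fold changes, as log2 AST1 minus AST3 with their SE, come from the fit over all 15798 genes, in which no gene was called.

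The ratio of AST1 to AST3 was only moderately shared by the suspensions. Of the 2689 well-detected genes, 1723, or 64.1%, had the same sign in 1H and 2H, with 920 genes (34.2%) higher in AST1 in both suspensions and 803 genes (29.9%) higher in AST3 in both. Across these genes, which are not independent and share their libraries, Pearson's r of the log2 ratios of 1H and 2H was 0.416. A difference of at least 1.5-fold in the same direction in both suspensions was met by 82 genes (3.05%) higher in AST1 and 105 genes (3.9%) higher in AST3, while 30 genes reached 1.5-fold in opposite directions. Counted over the 16 plates that held cells of both types, 160 genes (5.95%) were higher in the same type on at least 14 plates. All 24 called genes were among them, and 15 of the 24 had the same direction on every plate. The plates hold the cells whose sums gave the calls, 8 plates to a suspension with the same mice, so they are not independent replicates and this count is a description. The smallest plate held 1 AST3 cell.

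**Figure D1:**
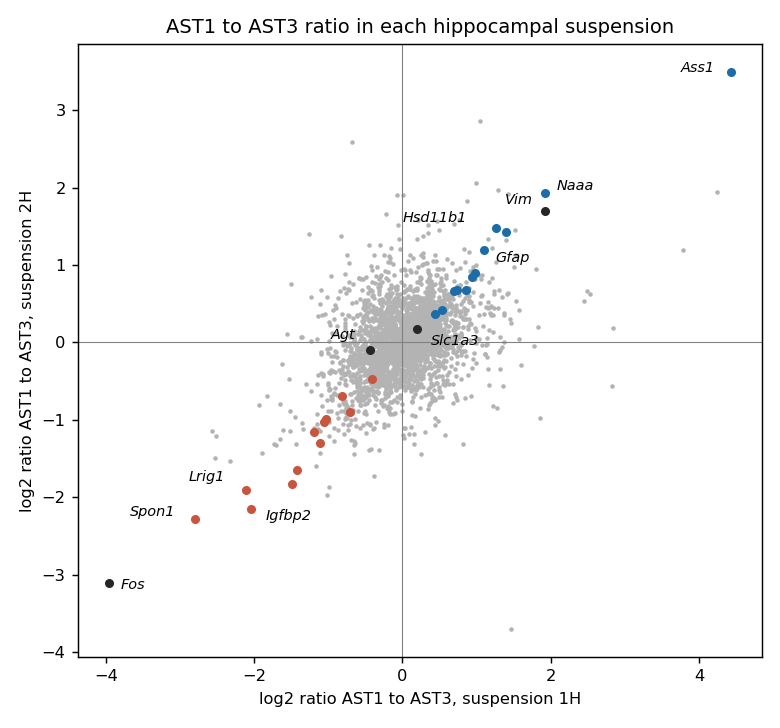
Log2 ratio of AST1 to AST3 in suspension 1H (x axis) and 2H (y axis), with 0.5 CPM added to each level; grey points are the 2689 well-detected genes, blue and red points the 12 and 12 called genes, and black points Fos, Vim, Slc1a3 and Agt (Fos and Vim were not well detected). The called genes lie near the diagonal, with Spon1 lowest at −2.80 and −2.28 and Ass1 highest, while most grey points scatter around 0. Spon1 and Ass1 each entered the well-detected genes only through the type where they were higher.

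By level, the calls higher in AST1 were led by secreted proteins. The fold changes of Cst3, Clu and Apoe were smaller than those of Ass1, Naaa, Prex2, Hsd11b1 and Gfap below. Cst3, cystatin C, a secreted inhibitor of cysteine proteases that lies at chr2:148871722-148875692 (GRCm38, minus strand), had 18455 and 18831 CPM in AST1 and 9385 and 10111 CPM in AST3. That was 1.97-fold and 1.86-fold higher in AST1, and the gene was called (log2 fold change 0.94 ± 0.034 (SE), adjusted p = 0.00466). Clu, clusterin, a secreted chaperone that is also carried on lipoproteins, had 19884 and 20881 CPM in AST1 and 10388 and 11618 CPM in AST3 (log2 fold change 0.89 ± 0.036 (SE), adjusted p = 0.00466). Apoe, apolipoprotein E, the main lipid carrier that astrocytes release, was among the most abundant RNAs and differed less, with 42370 and 42649 CPM in AST1 and 31265 and 33208 CPM in AST3 (log2 fold change 0.40 ± 0.029 (SE), adjusted p = 0.019). For these 3 secreted proteins both AST1 sums lay above both AST3 sums. Cpe, carboxypeptidase E, which trims peptide prohormones, stood at 7929 and 8413 CPM in AST1 and 4757 and 5279 CPM in AST3 and was called (adjusted p = 0.0141). Scg3, secretogranin III of the secretory granule, was 1.51-fold and 1.48-fold higher in AST1 but missed the threshold (adjusted p = 0.0611).

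Enzymes formed the next group. Naaa, the lysosomal hydrolase of palmitoylethanolamide, had 681.4 and 754.5 CPM in AST1 and 178.9 and 198.4 CPM in AST3 and was higher in AST1 on 16 of 16 plates (log2 fold change 1.93 ± 0.099 (SE), adjusted p = 0.019). Hsd11b1, which regenerates active glucocorticoid inside the cell, had 1541 and 1814 CPM in AST1 and 641.2 and 649.5 CPM in AST3 and a log2 fold change of 1.37 ± 0.092 (SE) (adjusted p = 0.019). Gstm5, a glutathione transferase, was called with 1378 and 1473 CPM in AST1 and 849.1 and 927.1 CPM in AST3 (adjusted p = 0.0452). Ass1, argininosuccinate synthase of the arginine cycle, had 86.74 and 92.92 CPM in AST1 and 3.532 and 7.786 CPM in AST3 (log2 fold change 4.10 ± 0.47 (SE), adjusted p = 0.0283). In AST3 1 cell of 1H supplied 100% of the Ass1 counts, and in 2H the leading cell supplied 49.5%, so the low level of Ass1 rests on few cells. Ass1 entered the well-detected genes through AST1 only, so its call is a description. In each of the other 23 called genes no cell supplied more than 19.1% of any sum. Phgdh, which opens serine synthesis, was 1.76-fold and 1.59-fold higher in AST1 without passing the threshold (adjusted p = 0.0521). Thrsp, a regulator of fatty acid synthesis, was higher on 16 of 16 plates with 723.4 and 665.2 CPM in AST1 and 372.9 and 348.6 CPM in AST3 (adjusted p = 0.0545, not called).

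Among structural, membrane and signalling proteins, Gfap (chr11:102887336-102900912, minus strand) had 1177 and 1071 CPM in AST1 and 548.0 and 466.5 CPM in AST3 and was called (log2 fold change 1.15 ± 0.081 (SE), adjusted p = 0.0201). Both AST1 sums were above both AST3 sums, and AST1 was higher on 16 of 16 plates. Within the cells prepared with template-switching oligonucleotide of freeze-thaw cycle 0 the Gfap log2 fold change was 1.21, within cycle 1 it was 1.31, and without cells bearing markers of other types it was 1.16. Of the 5 well-detected filament and cytoskeleton genes 3 were higher in AST1 in both suspensions and 0 in AST3, against 34.2% and 29.9% of all well-detected genes. Vim, vimentin, another intermediate filament, was found in fewer than 25% of cells of each type and lay outside the well-detected genes, with 88.07 and 81.40 CPM in AST1 and 22.93 and 24.71 CPM in AST3. A single cell supplied 37.9% of the Vim counts of AST3 in 2H, and more than that in 1H. Prex2, an exchange factor for Rac, had 509.2 and 659.7 CPM in AST1 and 193.4 and 246.1 CPM in AST3 (log2 fold change 1.41 ± 0.10 (SE), adjusted p = 0.0283). Gpm6b, a tetraspan membrane proteolipid, had 2064 and 2177 CPM in AST1 and 1142 and 1357 CPM in AST3 (adjusted p = 0.034). Slc1a2, the glutamate transporter GLT-1, had 5567 and 5815 CPM in AST1 and 3849 and 4340.2 CPM in AST3 (adjusted p = 0.0399). Ntsr2, the neurotensin receptor of astrocytes, was 1.29-fold and 1.35-fold higher in AST1 and not called (adjusted p = 0.0611).

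By p, the calls higher in AST3 were led by Igfbp2, a secreted protein that binds insulin-like growth factors (chr1:72824503-72852474, plus strand). Its level was 215.7 and 189.3 CPM in AST1 and 886.6 and 841.1 CPM in AST3, or 4.11-fold and 4.44-fold higher in AST3 (log2 fold change −2.10 ± 0.099 (SE), adjusted p = 0.0141), on 16 of 16 plates. The log2 fold change of Igfbp2 was −2.12 within freeze-thaw cycle 0, −1.99 within cycle 1, and −2.02 without cells bearing markers of other types. Spon1, F-spondin, a secreted matrix protein, differed most in size among the calls higher in AST3, with 60.97 and 83.22 CPM in AST1 and 426.9 and 407.1 CPM in AST3 (log2 fold change −2.55 ± 0.21 (SE), adjusted p = 0.0216). Itih3, an inter-alpha-trypsin inhibitor that stabilises hyaluronan matrix, had 392.7 and 452.1 CPM in AST1 and 821.6 and 919.6 CPM in AST3 (adjusted p = 0.0283). Mfge8, a bridging protein for phagocytosis, was abundant in both types and 1.33-fold and 1.39-fold higher in AST3, with 6382 and 6950.4 CPM in AST1 and 8519.9 and 9648 CPM in AST3 (adjusted p = 0.0201). Il33, an alarmin cytokine kept in the nucleus, had 146.7 and 124.6 CPM in AST1 and 411.2 and 444.6 CPM in AST3 (log2 fold change −1.66 ± 0.16 (SE), adjusted p = 0.0389). For these 5 genes the AST3 sums lay above the AST1 sums in both suspensions. Spon1 and Il33 entered the well-detected genes through AST3 only, the type where they were higher, so their calls are descriptions.

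Channels and receptors followed. Kcnj16, the inward rectifier Kir5.1 that pairs with Kir4.1, had 237.6 and 193.6 CPM in AST1 and 639.7 and 605.7 CPM in AST3 (log2 fold change −1.54 ± 0.12 (SE), adjusted p = 0.0276). Adgrg1, the adhesion receptor GPR56, had 680.7 and 742.8 CPM in AST1 and 1393 and 1472 CPM in AST3 (adjusted p = 0.0195). Paqr7, a membrane progestin receptor, had 794.0 and 831.7 CPM in AST1 and 1392 and 1348 CPM in AST3 (adjusted p = 0.0399). Lrig1, a negative regulator of growth factor receptors, was 4.32-fold and 3.78-fold higher in AST3, with 84.91 and 97.08 CPM in AST1 and 366.8 and 366.9 CPM in AST3 (adjusted p = 0.0229). Lrig1 entered the well-detected genes through AST3 only, so its call is a description. Luzp2, a leucine zipper protein, had 698.7 and 590.0 CPM in AST1 and 1515 and 1459 CPM in AST3 (adjusted p = 0.0195), and Pygm, the muscle form of glycogen phosphorylase, had 246.2 and 258.8 CPM in AST1 and 563.6 and 578.8 CPM in AST3 (adjusted p = 0.0401). Lrtm2 and Gjb6, connexin 30, were higher in AST3 in both suspensions and not called. The level of Lrtm2 was 114.4 and 119.1 CPM in AST1 and 427.7 and 321.6 CPM in AST3 (adjusted p = 0.0521). Gjb6 had 1623 and 1631 CPM in AST1 and 2201 and 2299 CPM in AST3 (adjusted p = 0.0545) and was higher in AST3 on 16 of 16 plates.

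**Figure D2:**
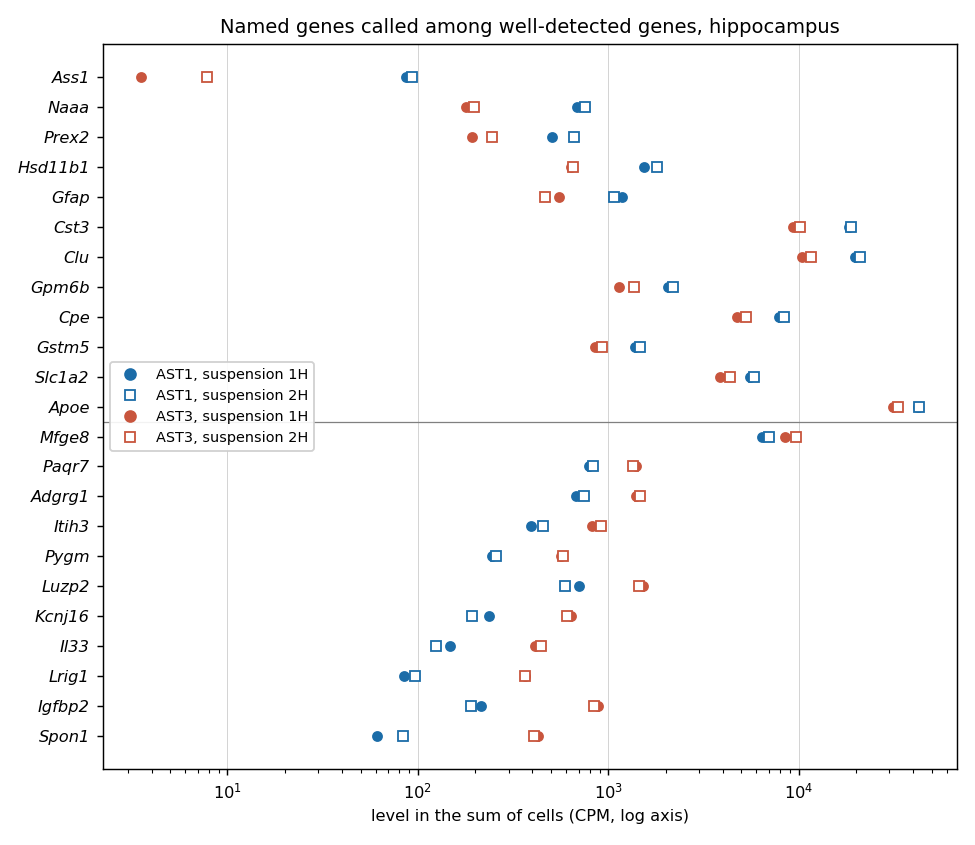
Level in CPM (log axis) of the called genes named in the text in each sum of cells; blue is AST1, red is AST3, filled circles are suspension 1H and open squares 2H, and there is no error bar because each point is 1 sum. Genes above the line were higher in AST1 and genes below it higher in AST3, and in every gene the AST1 and AST3 points separate in both suspensions.

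Cells of a type did not share these genes evenly. After thinning to 50000 counts, Igfbp2 was found in 30.3% (25.1–36) and 29.2% (24.1–34.8) of AST1 cells and 90.8% (81.3–95.7) and 87.8% (79–93.2) of AST3 cells, with Wilson 95% intervals that cover counting error only. Gfap was found in 70.1% (64.4–75.2) and 71.9% (66.3–76.9) of AST1 cells and 53.8% (41.9–65.4) and 51.2% (40.6–61.7) of AST3 cells. Both types thus held cells with and without a Gfap count, and the shares differed less than the levels. A cell without a count can still express the gene. Il33 was found in 21.4% and 19.7% of AST1 cells and 49.2% and 58.5% of AST3 cells, Spon1 in 8.49% and 13.5% and 49.2% and 48.8%, and Ass1 in 24% and 26.6% and 1.54% and 3.66%. Agt, angiotensinogen, which the study used with Gfap, Unc13c and Slc1a3 for in situ mapping, was found in 64.2% and 67.5% of AST1 cells and 80% and 76.8% of AST3 cells. Its level was 918.3 and 941.1 CPM in AST1 and 1239.6 and 1004 CPM in AST3 (log2 fold change −0.26 ± 0.12 (SE), adjusted p = 0.299), with the direction held on 10 of 16 plates only. The study took AST1 as high in Gfap and Agt, and AST3 as having Agt with little Gfap or Unc13c. Agt is on its AST1 marker list, which set AST1 against all other astrocytes of both regions. Within hippocampus the Agt sums were lower in AST1 in both suspensions. Unc13c, a presynaptic priming factor, had counts after thinning in 4.06% and 3.28% of AST1 and 3.08% and 2.44% of AST3 cells. Without thinning the shares were 4.06% and 4.01% in AST1 and 6.15% and 2.44% in AST3, so that AST3 was the higher in 1H, and its sums of 8.059 and 5.197 CPM in AST1 and 2.125 and 3.353 CPM in AST3 rested on few cells.

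**Figure D3:**
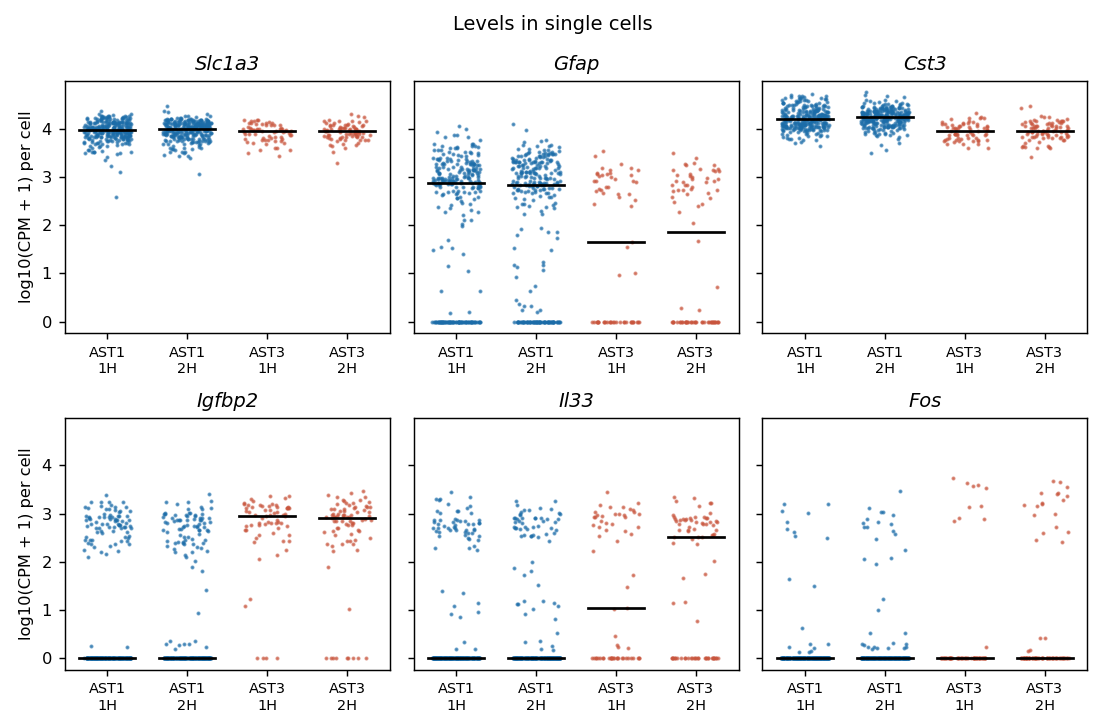
Levels in single cells as log10(CPM + 1) for Slc1a3, Gfap, Cst3, Igfbp2, Il33 and Fos in AST1 (blue) and AST3 (red) of suspensions 1H and 2H; each point is a cell and each bar the median. Slc1a3 and Cst3 are present throughout, with the Cst3 medians of AST1 above those of AST3, while Gfap, Igfbp2, Il33 and Fos are at 0 in some cells of each type and reach high levels in others.

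Thbs4, thrombospondin 4, a secreted protein that promotes synapse formation (chr13:92751590-92794818, minus strand), was found in a minority of AST1 cells and in no AST3 cell. It had counts in 25 and 23 AST1 cells, or 9.23% and 8.39%, at 93.10 and 87.25 CPM, and 0 counts in every AST3 cell. None of 65 and 82 AST3 cells allows shares of up to 4.62% and 3.66% of cells with a count, for counting error only, and does not limit the share of cells that express the gene.

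Of the study's own 37 markers of AST1, all well detected, 28 were higher in AST1 in both suspensions, 11 of them by at least 1.5-fold and 4 of them called, and 5 were higher in AST3 in both. Of the 36 markers of AST3, 33 were well detected, 29 of these were higher in AST3 in both suspensions, 17 by at least 1.5-fold and 7 called, and 1 was higher in AST1. The study chose both lists on cells that include these, so their direction is not independent evidence. The same holds for their members wherever these recur on the other gene lists. The medians of the AST1 and AST3 marker lists were 0.48 and −0.78, against 0.03 over all 2689 genes. Of all 2689 genes, 34.2% were higher in AST1 and 29.9% in AST3 in both suspensions, 3.05% and 3.9% by at least 1.5-fold. In each direction 0.446% were called.

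Immediate early genes, transcription factors and phosphatases that many stimuli switch on within minutes, were described by their well-detected members and by Fos. Of 31 listed genes 24 passed the low-count filter, but only 6 were well detected. Of these, 4 were higher in AST3 in both suspensions and 0 in AST1, against 29.9% and 34.2% of all well-detected genes, 3 reached 1.5-fold in AST3 in both, and 0 were called, with a median log2 fold change of −1.14 against 0.03 over all well-detected genes. Fos, Jun, Dusp1 and Ccn1 are also on the study's AST3 marker list, which was chosen on cells that include these. Their direction is therefore not independent evidence. Fos (chr12:85473890-85477273, plus strand), the core of the AP-1 factor, had 28.95 and 50.77 CPM in AST1 and 455.2 and 442.6 CPM in AST3 (log2 fold change −3.55 ± 0.31 (SE), unadjusted p = 0.00181). It was higher in AST3 on 12 of 16 plates. Fos was found in 4.06% and 6.93% of AST1 cells and 15.4% and 23.2% of AST3 cells after thinning, so most cells of either type had no Fos count. The leading cell supplied 14.4% to 23.5% of each Fos sum. Its log2 fold change was −3.20 in freeze-thaw cycle 0 and −4.00 in cycle 1, and −3.96 without cells bearing markers of other types. Dusp1, a phosphatase that switches off MAP kinases, had 90.31 and 103.1 CPM in AST1 and 297.1 and 259.6 CPM in AST3 (adjusted p = 0.063). Ccn1, a matricellular growth regulator, was 2.88-fold and 2.21-fold higher in AST3 (adjusted p = 0.08), and Dusp6, the phosphatase of ERK, was 2.76-fold and 1.95-fold higher in AST3 (adjusted p = 0.103). In all of these the AST3 sums were the higher ones, but none was called. Jun had 73.22 and 64.22 CPM in AST1 and 95.77 and 214.4 CPM in AST3, where the first suspension differed less than the second (log2 fold change −1.06 ± 0.45 (SE)). The remaining well-detected members, Nfkbia, an inhibitor of NF-kappaB, and Zfp36l1, which destabilises mRNA, had log2 fold changes of 0.49 and 0.18, with log2 ratios of 1.31 and −0.34 for Nfkbia and 0.59 and −0.24 for Zfp36l1 that differed in sign between the suspensions.

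The promoters of Fos, Dusp1, Ccn1 and Dusp6 are shown because these were the 4 immediate early genes with the smallest p, all of them higher in AST3 and none called. Each run holds the 150 bases before the RefSeq start of transcription, read 5′ to 3′ on the gene's strand, and capitals mark TGACGT or its reverse complement, the core of the cyclic AMP response element.
Fos, chr12:85473740-85473889, + strand, GRCm38.p6: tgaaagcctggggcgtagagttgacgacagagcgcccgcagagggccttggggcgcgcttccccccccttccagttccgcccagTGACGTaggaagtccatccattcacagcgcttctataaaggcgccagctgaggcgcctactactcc
Dusp1, chr17:26508473-26508622, - strand, GRCm38.p6: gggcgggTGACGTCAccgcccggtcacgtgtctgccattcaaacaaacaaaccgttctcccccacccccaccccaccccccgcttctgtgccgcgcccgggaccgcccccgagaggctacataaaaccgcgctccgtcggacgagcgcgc
Ccn1, chr3:145649986-145650135, - strand, GRCm38.p6: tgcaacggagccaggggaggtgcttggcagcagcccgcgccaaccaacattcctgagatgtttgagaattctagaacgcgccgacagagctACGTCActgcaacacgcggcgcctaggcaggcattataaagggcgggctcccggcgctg
Dusp6, chr10:99263081-99263230, + strand, GRCm38.p6: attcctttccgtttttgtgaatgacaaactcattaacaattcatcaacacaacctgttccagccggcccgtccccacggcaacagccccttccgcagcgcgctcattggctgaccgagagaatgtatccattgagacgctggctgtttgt
The motif TGACGT was found on either strand in 3 of these 4 promoters, and in 6.47% of 32851 RefSeq promoters over the 250 bases before the start. In Dusp1 overlapping matches on both strands form the full palindrome TGACGTCA, which 1.55% of promoters hold. The promoter of Dusp6 had no match over its 250 bases. These matches describe letters and not binding, and 4 genes chosen for their direction allow no test.

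Heat shock genes were split. Of 7 well-detected members, 3 were higher in AST1 and 4 in AST3 in both suspensions, against 34.2% and 29.9% of all well-detected genes. Of the 7, 0 reached 1.5-fold in both, and the median was −0.04. Hspa5, the chaperone of the endoplasmic reticulum, had 668.2 and 655.2 CPM in AST1 and 921.2 and 1033 CPM in AST3 (adjusted p = 0.0915), and the cytosolic Hspa8 had 1129 and 1068 CPM in AST1 and 1257 and 1269 CPM in AST3. Hsp90aa1 was higher in AST1, with 138.6 and 134.4 CPM in AST1 and 104.6 and 98.74 CPM in AST3 (adjusted p = 0.41).

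**Figure D4:**
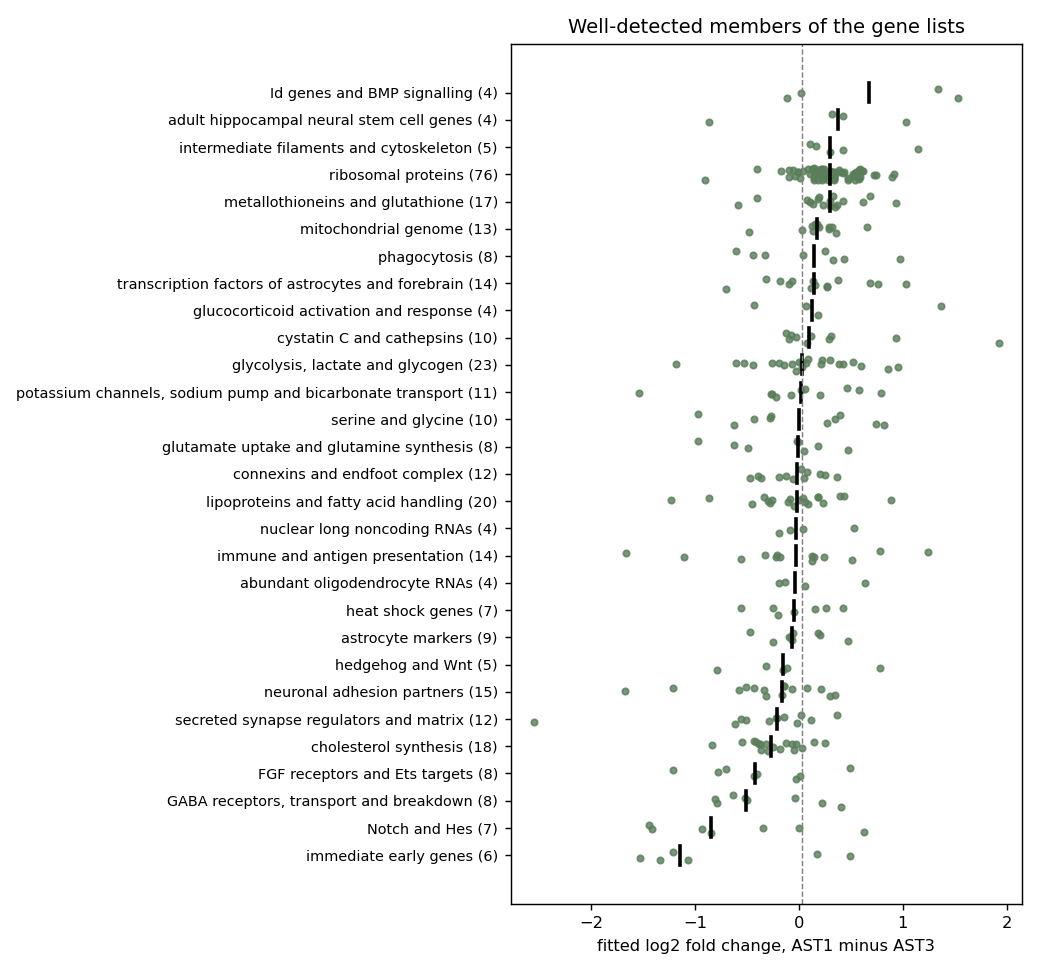
Fitted log2 fold change, AST1 minus AST3, of the well-detected members (points) of each gene list that had at least 4 of them, the study's marker lists left out, with the list's median (black bar) and the number of members in brackets; the dashed line is the median of all 2689 well-detected genes, 0.03. Immediate early genes and Notch and Hes lie lowest at −1.14 and −0.84, and Id genes and BMP signalling highest at 0.68, with wide scatter in short lists.

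Of the Notch pathway, which keeps neural precursors and glia undifferentiated through Hes factors, 7 of 14 genes were well detected. Of these, 5 were higher in AST3 in both suspensions and 1 in AST1, against 29.9% and 34.2% of all well-detected genes. In AST3, 3 reached 1.5-fold in both, and 0 were called (median −0.84), against 3.9% and 0.446% of all. Hes5, among the 7, is also on the study's AST3 marker list. Hes5, the effector of Notch in neural cells, was 1.75-fold and 2.08-fold higher in AST3 (adjusted p = 0.0991). The ligand Jag1 had 40.35 and 40.57 CPM in AST1 and 81.06 and 149.3 CPM in AST3 (adjusted p = 0.138), and Nrarp, a target that dampens Notch, had 13.41 and 13.49 CPM in AST1 and 42.17 and 30.19 CPM in AST3 (adjusted p = 0.0968). Heyl, another target, was found in fewer cells and had 8.076 and 14.14 CPM in AST1 and 53.75 and 55.16 CPM in AST3. Of the Id genes, inhibitors of bHLH factors that BMP signals induce, Id3 and Id4 were higher in AST1, while Id2 had a log2 fold change of −0.11. Id4 had 197.1 and 187.2 CPM in AST1 and 67.97 and 84.97 CPM in AST3 (adjusted p = 0.0953) and Id3 had 807.7 and 681.1 CPM in AST1 and 405.1 and 163.3 CPM in AST3 (adjusted p = 0.103), each higher in AST1 on 15 of 16 plates and neither called. Of the 16 genes of that list only 4 were well detected, of which 2 were higher in AST1 in both suspensions, both by at least 1.5-fold, 1 was higher in AST3 in both, and 0 were called. Id3 is also on the study's AST1 marker list. The FGF receptor list had 5 of 8 well-detected members higher in AST3 in both suspensions and 1 in AST1, with a median of −0.42. Over all well-detected genes the shares were 29.9% and 34.2%. In it Fgfr3, the FGF receptor of astrocytes, had 902.8 and 960.2 CPM in AST1 and 1116 and 1412 CPM in AST3, its feedback inhibitor Spry2 371.1 and 404.4 CPM in AST1 and 534.5 and 492.3 CPM in AST3, and the target Etv5 213.6 and 222.1 CPM in AST1 and 469.1 and 296.8 CPM in AST3 (adjusted p = 0.128, 0.241 and 0.205). Etv5 is also on the study's AST3 marker list.

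GABA handling leaned to AST3. Of 8 well-detected members, 6 were higher in AST3 in both suspensions and 1 in AST1, against 29.9% and 34.2% of all well-detected genes. Of the 8, 2 reached 1.5-fold in AST3 in both and 1 was called (median −0.51), against 3.9% and 0.446% of all. Gabrg1, among the 6, is also on the study's AST3 marker list. Slc6a11, the glial transporter GAT-3, had 202.2 and 230.7 CPM in AST1 and 289.6 and 328.1 CPM in AST3 (adjusted p = 0.209), and Abat, which breaks GABA down, had 239.4 and 255.5 CPM in AST1 and 453.6 and 403.0 CPM in AST3 (adjusted p = 0.103). Glutamate uptake and glutamine synthesis was split. Of its 8 well-detected members 2 were higher in AST1 and 3 in AST3 in both suspensions, with Slc1a2 the called gene. Slc7a10, the exchanger of alanine, serine and cysteine, was higher in AST3 on 16 of 16 plates with 1268 and 1246 CPM in AST1 and 1813 and 2073 CPM in AST3 (adjusted p = 0.0598), and Slc38a3, a glutamine transporter, had 574.1 and 598.8 CPM in AST1 and 802.7 and 839.3 CPM in AST3 (adjusted p = 0.103). Gria2, an AMPA receptor subunit, had 389.5 and 372.4 CPM in AST1 and 707.9 and 476.2 CPM in AST3 (adjusted p = 0.19). Of the 11 well-detected potassium channel, sodium pump and bicarbonate genes 3 were higher in AST1 and 4 in AST3 in both suspensions, with a median of 0.02. Beside Kcnj16, the called gene, Kcnk1, the channel TWIK-1, had 666.3 and 651.3 CPM in AST1 and 452.6 and 504.9 CPM in AST3, and Slc4a4, the sodium bicarbonate cotransporter, had 719.1 and 619.6 CPM in AST1 and 835.9 and 769.6 CPM in AST3 (adjusted p = 0.18 and 0.248).

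Connexins and the endfoot complex gave 4 of 12 well-detected members higher in AST1 and 4 in AST3 in both suspensions, against 34.2% and 29.9% of all well-detected genes. None reached 1.5-fold, and the median was −0.01. Aqp4, the water channel of the endfoot, had 1884 and 1719.6 CPM in AST1 and 1561 and 1564 CPM in AST3, Mlc1, its membrane partner, 2466 and 2456 CPM in AST1 and 2148 and 1984 CPM in AST3, and Slc2a1, the glucose carrier, 442.6 and 448.6 CPM in AST1 and 565.9 and 578.1 CPM in AST3 (adjusted p = 0.286, 0.18 and 0.225). Secreted synapse regulators and matrix genes had 2 of 12 well-detected members higher in AST1 and 8 in AST3 in both suspensions, with Spon1 called. The shares over all well-detected genes were 34.2% and 29.9% by direction, with 0.446% called in AST3. Sparc, a matrix protein that antagonises synapse formation, had 361.4 and 436.1 CPM in AST1 and 527.5 and 697.1 CPM in AST3, and Timp3, an inhibitor of metalloproteases, had 557.6 and 579.9 CPM in AST1 and 832.3 and 782.3 CPM in AST3 (adjusted p = 0.103 and 0.108). Of 15 well-detected genes on the list of neuronal adhesion partners, 9 were higher in AST3 and 2 in AST1 in both suspensions. The shares over all well-detected genes were 29.9% and 34.2%. Its only call was Luzp2, described above as a leucine zipper protein. Luzp2, Lrtm2 and Vcam1 of this list are also on the study's AST3 marker list. Cadm1 had 821.9 and 759.9 CPM in AST1 and 1029 and 964.0 CPM in AST3 (adjusted p = 0.156), while Tenm4, a teneurin, was found in fewer cells, with 26.02 and 11.83 CPM in AST1 and 79.76 and 50.32 CPM in AST3.

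Metabolic lists are given by their counts, beside 34.2% of all well-detected genes higher in AST1 and 29.9% higher in AST3 in both suspensions. In each direction 0.446% of all well-detected genes were called, which stands beside each call in these lists. Of 18 well-detected genes of cholesterol synthesis 10 were higher in AST3 in both suspensions and 1 in AST1, with a median of −0.27 and 0 calls. Dhcr7, the last enzyme of one branch, had 289.7 and 317.5 CPM in AST1 and 559.3 and 522.4 CPM in AST3, Msmo1 1744 and 1623 CPM in AST1 and 2207 and 2111 CPM in AST3, and Insig1, the sterol sensor's partner, 572.0 and 505.7 CPM in AST1 and 781.2 and 656.7 CPM in AST3 (adjusted p = 0.0893, 0.0869 and 0.158). Mvd was 1.51-fold and 1.41-fold higher in AST3 (adjusted p = 0.221). Lipoprotein and fatty acid genes held 5 of 20 higher in AST1 and 9 in AST3 in both suspensions, and both calls, Clu and Apoe, were in AST1. Lcat, which esterifies cholesterol on lipoproteins, had 1799 and 1483 CPM in AST1 and 1345 and 1085 CPM in AST3, and Acsbg1, an acyl-CoA synthetase, had 2447 and 2430.5 CPM in AST1 and 3001 and 3170.1 CPM in AST3 (adjusted p = 0.0893 and 0.0869). Fabp7, the brain fatty acid binding protein, had 214.8 and 182.2 CPM in AST1 and 362.5 and 357.6 CPM in AST3 (adjusted p = 0.0991). Glycolysis, lactate and glycogen had 10 of 23 higher in AST1 and 8 in AST3 in both suspensions and a median of 0.03. Its glycogen genes were split. Pygm, Pgm1 (435.1 and 406.0 CPM in AST1 and 668.1 and 607.9 CPM in AST3) and Ppp1r3c (251.1 and 235.3 CPM in AST1 and 375.2 and 326.8 CPM in AST3) were higher in AST3, with Pygm called, and Pfkp, a phosphofructokinase, was higher in AST1 at 417.5 and 376.7 CPM in AST1 and 253.3 and 270.3 CPM in AST3 (adjusted p = 0.0991, 0.193 and 0.18). The glycogen genes Ppp1r3g, Phka1, Pygb and Ugp2 were higher in AST1 in both suspensions without being called, with log2 fold changes of 0.96, 0.53, 0.43 and 0.39. Serine and glycine genes were even, at 5 and 5 of 10. Phgdh leaned to AST1, while the carriers Slc1a4 (636.7 and 738.7 CPM in AST1 and 858.5 and 1000.5 CPM in AST3) and Slc6a9 (67.21 and 63.54 CPM in AST1 and 106.1 and 153.7 CPM in AST3) leaned to AST3 (adjusted p = 0.104 and 0.194).

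Metallothionein and glutathione genes leaned to AST1. Of 17 well-detected members 14 were higher in AST1 in both suspensions and 1 in AST3, against 34.2% and 29.9% of all well-detected genes, with a median of 0.30. Gstm5 was called in AST1, as were 0.446% of all well-detected genes. Mgst1 and Fam213a of this list are also on the study's AST1 marker list. Prdx6, a peroxiredoxin, had 4097 and 3960.1 CPM in AST1 and 3264 and 3165 CPM in AST3 (adjusted p = 0.0857), Mt1, a metal-binding metallothionein, had 1685 and 1664 CPM in AST1 and 1223 and 1271 CPM in AST3 (adjusted p = 0.0915), and Fam213a, a redox regulator, had 864.0 and 865.7 CPM in AST1 and 565.4 and 560.2 CPM in AST3 (adjusted p = 0.0869). Ribosomal protein genes had 48 of 76 higher in AST1 and 5 in AST3 in both suspensions, with 1 at 1.5-fold in AST1, 0 calls and a median of 0.30. Rpl7 was 1.46-fold and 1.45-fold higher in AST1 (adjusted p = 0.304). Many ribosomal protein genes have processed pseudogenes, between which uniquely mapped reads can be lost. Of the 13 protein genes of the mitochondrial genome 10 were higher in AST1 in both suspensions and 0 in AST3, by a median of 0.18. mt-Cytb, of complex III, had 9153 and 9090.3 CPM in AST1 and 8073 and 7816 CPM in AST3 and mt-Co1, of complex IV, 10498 and 11053 CPM in AST1 and 9346 and 9810.1 CPM in AST3 (adjusted p = 0.106 and 0.126). Mitochondrial RNA took a median 3.82% and 3.95% of the counts of AST1 cells and 3.62% and 3.80% of AST3 cells. The part of RNA quality in these differences was not tested.

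Cystatin C and the cathepsins had 5 of 10 higher in AST1 and 2 in AST3 in both suspensions, with Cst3 and Naaa called. Over all well-detected genes 34.2% were higher in AST1 and 29.9% in AST3 in both, and 0.446% were called in each direction. These shares stand beside each count and call in this paragraph. The glucocorticoid list had 4 well-detected members, of which Hsd11b1 was called and Tsc22d3, a target of the receptor, was lower in AST1 at 292.5 and 293.7 CPM in AST1 and 377.7 and 411.7 CPM in AST3 (adjusted p = 0.237). Immune genes were even, with 6 of 14 higher in each type in both suspensions and Il33 called. In this list Tril, a coreceptor of Toll-like receptors, had 853.0 and 864.4 CPM in AST1 and 1214 and 1313 CPM in AST3 and was higher in AST3 on 16 of 16 plates, and the kinase Irak2 had 97.68 and 101.7 CPM in AST1 and 217.4 and 212.2 CPM in AST3 (adjusted p = 0.0759 and 0.0915). The tetraspanin Cd9 was higher in AST1 at 386.1 and 408.3 CPM in AST1 and 135.7 and 207.6 CPM in AST3 (adjusted p = 0.088). Of 8 well-detected phagocytosis genes 3 were higher in AST1 and 2 in AST3 in both suspensions, with Mfge8 called in AST3.

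Among 14 well-detected genes on the list of transcription factors of astrocytes and forebrain 7 were higher in AST1 and 4 in AST3 in both suspensions, and 0 were called. The shares over all well-detected genes were 34.2% and 29.9%. Zbtb20, a zinc finger protein of hippocampal and astrocyte development, had 663.6 and 687.4 CPM in AST1 and 388.0 and 410.7 CPM in AST3 (adjusted p = 0.0857), Tcf4 477.5 and 478.9 CPM in AST1 and 361.5 and 372.9 CPM in AST3, and Wfs1, wolframin, 87.19 and 100.9 CPM in AST1 and 158.7 and 145.5 CPM in AST3 (adjusted p = 0.26 and 0.24). Wolframin is a membrane protein, and Wfs1 is on the list because the study names it among transcription factors. Hopx, a homeodomain protein of radial glia-like stem cells, had 43.07 and 45.86 CPM in AST1 and 18.38 and 25.63 CPM in AST3 (adjusted p = 0.156). Wnt genes gave Dkk3, a secreted modulator, 453.2 and 396.2 CPM in AST1 and 218.3 and 277.2 CPM in AST3 (adjusted p = 0.167) and the receptor Fzd1, found in fewer cells, 41.51 and 48.22 CPM in AST1 and 122.2 and 113.2 CPM in AST3. Of the stem cell list 4 of 24 genes were well detected, 3 of them higher in AST1 and 1, Fabp7, higher in AST3 in both suspensions. Nnat, neuronatin, had 406.6 and 385.7 CPM in AST1 and 305.8 and 284.1 CPM in AST3 (adjusted p = 0.258), but its log2 value was −0.27 in limma on mean log values, and Prom1, prominin, 54.93 and 79.64 CPM in AST1 and 17.09 and 7.606 CPM in AST3. A single cell supplied 100% and 99.9% of Prom1 in the AST3 sums. The nuclear RNA Malat1 was close between the types, at 9868 and 10104 CPM in AST1 and 10349 and 10881 CPM in AST3 (log2 fold change −0.09 ± 0.03 (SE)).

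Olig1 and Olig2, factors of the oligodendrocyte lineage that some astrocytes also express, were higher in AST3 without being called. Olig1 was 3.34-fold and 2.5-fold higher in AST3 (log2 fold change −1.53 ± 0.17 (SE), adjusted p = 0.0509), and was found in 30.6% and 32.5% of AST1 cells and 69.2% and 64.6% of AST3 cells after thinning. Olig2 had 26.27 and 38.04 CPM in AST1 and 133.3 and 111.2 CPM in AST3 (log2 fold change −1.95 ± 0.33 (SE), adjusted p = 0.088), in 7.01% and 10.6% of AST1 cells and 29.2% and 30.5% of AST3 cells. Pdgfra, the receptor that defines oligodendrocyte precursors, had 0 counts in all 4 sums. No other of the 7 listed precursor markers was at 0, and 5 passed the low-count filter. Those 5, Olig1 and Olig2 among them, summed to 197.9 and 224.1 CPM in AST1 and 649.6 and 563.8 CPM in AST3. The share of RNA from precursors was not tested. Snap25, a synaptic protein of neurons, had 3.287 and 1.557 CPM in AST1 and 26.98 and 11.76 CPM in AST3, from 3.66% to 4.62% of AST3 cells. Pdgfrb, a receptor of mural cells, had a log2 fold change of 0.64 ± 0.26 (SE), which turned to −0.093 without cells bearing markers of other types. Pdgfrb is itself on the mural list by which cells were left out, so its change there was built into that alternative.

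The other hippocampal astrocytes place the 2 types. AST4, with 41 and 48 cells, had Gfap at 1958 and 1848 CPM and Ass1 at 434.5 and 410.9 CPM, above AST1 and AST3 in both suspensions. AST2, with 10 and 22 cells, had Igfbp2 at 762.5 and 1080.2 CPM. In 13 of the 24 called genes the AST1 level lay between those of AST3 and AST4 in both suspensions, as it did in 32.2% of all well-detected genes. In 5 of the 24, Clu, Hsd11b1, Apoe, Slc1a2 and Gstm5, AST3 lay between AST1 and AST4, and in 0 did AST4 lie between. These are counts over genes chosen for the difference between AST1 and AST3, and they carry no test. Fos stood at 250.0 and 277.5 CPM in AST2 and 812.5 and 1386 CPM in AST4.

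The same 2 types in cortex, with 57 and 55 AST1 cells and a larger number of AST3 cells in suspensions 1C and 2C, were set beside hippocampus to compare the ratios between regions. Litter and pooling went with region, so these cannot be told apart. The edgeR term for type by region called 0 of 17213 genes (0%), with a smallest adjusted p of 0.777 and 646 genes at an unadjusted p under 0.05, while DESeq2 called 1869. Among the 2689 well-detected genes it called 5 (0.186%): Olig2, Clu, Naaa, Itih3 and 3000002C10Rik, a clone that was named after its values were seen. This test was added after the data had been seen. Its genes were filtered on detection in hippocampal cells only, so a gene could enter through whichever hippocampal type it was high in. The 5 calls are therefore a description. Clu had log2 ratios of AST1 to AST3 of 0.94 and 0.85 in hippocampus and 0.17 and 0.31 in cortex, and Naaa of 1.93 and 1.92 and 0.38 and 0.28. Itih3 was higher in AST3 in hippocampus (−1.06 and −1.02) and higher in AST1 in cortex (0.43 and 0.71). Olig2 was at 0 and 0.01309 CPM in cortical AST1 and 19.12 and 26.23 CPM in cortical AST3, so it was higher in AST3 in both regions and the size of its difference hangs on cortical levels near 0. The clone had at most 12.87 CPM in any AST1 or AST3 sum, and in AST3 of hippocampus single cells supplied 95.9% and 77.5% of it.

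Beyond the calls, Thrsp had log2 ratios of 0.95 and 0.93 in hippocampus and −0.28 and −0.16 in cortex (difference 1.17 ± 0.15 (SE), unadjusted p = 0.00135). Sparc had −0.54 and −0.68 and 1.29 and 0.94 (difference −1.73 ± 0.21 (SE), unadjusted p = 0.00126), and Cyp2j6, a cytochrome P450, had −0.76 and −0.92 and 0.44 and 0.37 (difference −1.25 ± 0.18 (SE), unadjusted p = 0.00229). Adgrg1 and Prex2 kept their direction in cortex with smaller ratios, at −0.26 and −0.15 for Adgrg1 (difference −0.80 ± 0.11 (SE), unadjusted p = 0.00207) and 0.47 and 0.24 for Prex2 (difference 1.06 ± 0.16 (SE), unadjusted p = 0.00305). For Hsd11b1 the cortical ratios were 1.10 and 1.15, for Igfbp2 −1.51 and −2.49 and for Fos −3.86 and −2.87, and the interaction p values of these 3 genes were 0.141, 0.824 and 0.752, unadjusted. Thbs4 was at 27.88 and 55.64 CPM in cortical AST1 and 0 and 3.020 CPM in cortical AST3.

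**Figure D5:**
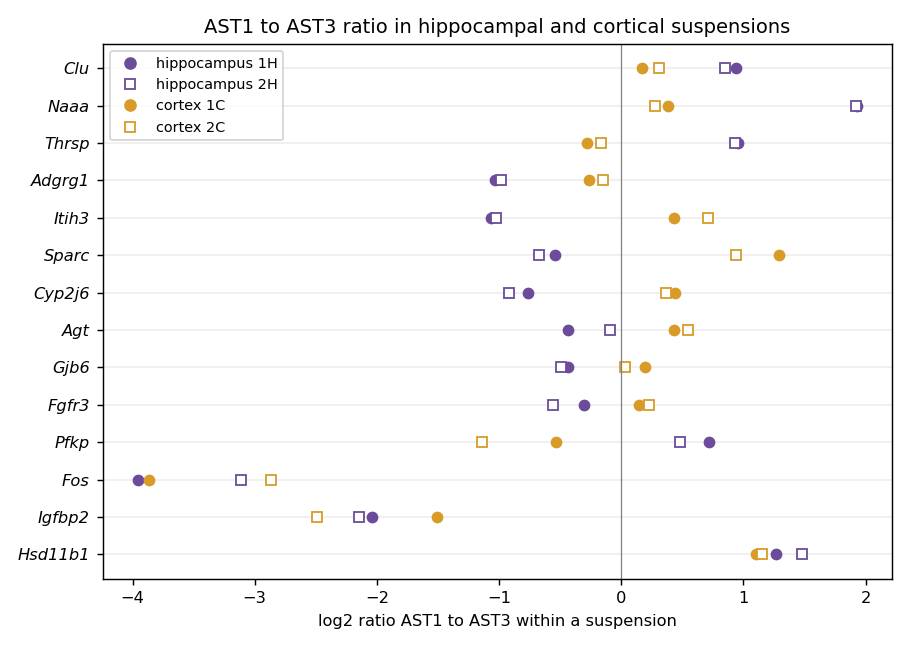
Log2 ratio of AST1 to AST3 within each suspension for 14 genes; purple marks hippocampus, yellow cortex, filled circles the first and open squares the second suspension of each region. Fos, Igfbp2 and Hsd11b1 keep their side of 0 in all 4 suspensions, while Thrsp, Itih3, Sparc, Cyp2j6, Agt, Gjb6, Fgfr3 and Pfkp lie on opposite sides in the 2 regions.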

How the data were processed

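Per the labels and the study's methods, the authors mapped 75-base paired reads with STAR 2.5.2b to GRCm38.p5 with ERCC spike-ins, after quality control with FastQC 0.11.4, with HTSeq then assigning uniquely mapped reads to genes. Each deposited file holds 1 cell's counts, as whole numbers without normalization, for 49671 gene identifiers, of which 49412 were given a symbol and a GRCm38 position. The counts without a gene (outside exons, ambiguous) and the 92 ERCC rows were left out of sums and tests. A table of the whole series was not used. Types were those of the study's list; 33 cells absent from the copy used, all of suspension 1C, entered no comparison.

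Counts were summed per type and suspension and tested in edgeR 4.0.16 (R 4.3.3; TMM, filterByExpr, robust quasi-likelihood, terms for suspension and type). The suspension pairs the sums because the cells of both types come from the same mice. The region term used 8 sums, with a term for type by region. Calls were at a Benjamini-Hochberg adjusted p under 0.05. DESeq2 1.42.0, limma 3.58.1 and Python 3.11.15 served alternatives and descriptions. Log ratios within a suspension add 0.5 CPM. Intervals and floors cover counting error only, since PCR reads are not independent molecules. Gene counts ran from 600758 to 2947720 per cell.

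The cells, gene lists and tests were chosen with earlier results of these data known. Named genes were, first, 15 per direction by p, since none was called over all genes, among those found in over 25% of cells of the higher type and with the same sign in both suspensions. Without that limit on cells followed Gfap, Agt, Unc13c and Slc1a3, the 4 smallest p of each list, and, under the first limits again, the 8 smallest p of the region term. List members under 10 CPM in all sums are mostly not given. Ass1, Prom1, Hopx, Jun, Gja1, Thbs4 and 3000002C10Rik, among others, were described with their values seen. Some results are not reported here. Promoters are from RefSeq on GRCm38.p6.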

Additional observations from a re-analysis of the deposited data

Results flagged for a closer look

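Genes named above whose AST1 to AST3 ratio had one sign in both hippocampal suspensions and the other in both cortical suspensions are listed here with the fitted difference of the log2 ratios, hippocampus minus cortex. None of these differences passed the threshold over all 17213 genes in edgeR. The differences were −1.61 for Itih3, 1.17 for Thrsp, −1.73 for Sparc and −1.25 for Cyp2j6, with unadjusted p values up to 0.00229. They were −0.58 for Gjb6, 0.27 for Slc1a3, −0.91 for Abat and 1.44 for Pfkp, with p from 0.00561 to 0.00907. They were −0.75 for Agt, 0.57 for Kcnk1, −0.72 for Slc4a4, −0.62 for Fgfr3, −0.74 for Slc6a11 and −0.55 for Malat1, with p from 0.0108 to 0.0178. They were −1.18 for Gria2, −2.14 for Tenm4, −1.44 for Slc6a9, −0.37 for Slc2a1, −0.23 for Gja1 and 7.12 for 3000002C10Rik, with p from 0.0306 to 0.0914. They were 1.77 for Ppp1r3g, 0.555 for Pygb and −0.24 for Id2, with p from 0.0078 to 0.0791. Of these 23 genes only Itih3 and 3000002C10Rik were called among well-detected genes.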

How the results depend on the processing

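Over all genes, 0 genes were called in either direction with other size factors, no low-count filter, no robust estimation, spread shared with other sums, subsets of cells, a looser threshold or the study's minimum fold. Without the replicate block, 0 and 0 genes were called in edgeR, with 1480 and 488 at an unadjusted p under 0.05, and pairing by suspension therefore changed no call over all genes. DESeq2 called 2114 genes higher in AST1 and 1103 in AST3, thinning to 50000 counts 8 and 9, limma 10 and 37, and the test of well-detected genes alone 12 and 12. Added after seeing the data, among well-detected genes, dropping the pairing gave 25 and 34 calls, sharing spread with cortical sums 18 and 12, and leaving out cells with markers of other types 6 and 2. Sharing spread with hippocampal AST2 and AST4 among well-detected genes gave 0 and 0, with 57 and 50 genes at an unadjusted p under 0.05, so the 24 calls depend on how spread is estimated. Leaving out either suspension gave 0 to 0 calls in each direction over all genes, and among well-detected genes 19 to 32 in AST1 and 13 to 18 in AST3, in the fit with the cortical sums. For type by region, DESeq2 called 1869 genes and the well-detected test, added after seeing the data, called 5. Over all genes, where 0 were called with every suspension, 0 were called when any suspension was left out. The 5 were not refitted without a suspension.

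Of the named genes, followed over up to 24 settings, 8 changed sign in at least 1 setting and the others in none. The log2 value was −0.009 for Mlc1, −0.27 for Nnat and −0.096 for Aqp4 with limma, 0.022 for Tsc22d3 and −0.110 for Nfkbia in freeze-thaw cycle 1, 0.019 for Id2 in cycle 0, and for Pdgfrb −0.093, or −0.133 among well-detected genes, without cells with other markers. Pdgfrb is one of the markers by which those cells were left out, so its change of sign was built into that setting. Leaving out a suspension gave −0.339 to 1.324 for Nfkbia and −0.238 to 0.597 for Zfp36l1, with −0.337 and −0.236 among well-detected genes and a log ratio of −0.342 and −0.238 in 2H alone. The median of well-detected genes was 0.03, but −0.10 with limma, so that small differences there are relative to it. The difference in the share of cells with Unc13c was 0.91 percentage points thinned to 50000 counts, 1.10 at 200000 and −0.26 without thinning, and the cause was not tested.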
